A study of Mus musculus with 16 samples.

Results

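Human genetic association studies link a set of loci to the risk of late-onset Alzheimer's disease (AD), and 34 mouse genes that are orthologues of candidate genes at such loci, or partners of them, are described here. They were found by gene name in the deposited count tables. All 34 were present, once each, among 55414 features in microglia and 56980 in astrocytes. The study asked what Rack1, a ribosome-bound scaffold protein, does in microglia in AD, by deleting it conditionally in that cell type in mice. For microglia and for astrocytes, 4 groups of 2 libraries each were sequenced, 16 libraries in all. They were AD CKO (AD model with conditional Rack1 knockout), AD WT (AD model with intact Rack1), CKO (knockout without the model) and WT (neither). The labels give no AD transgene, Cre driver, age, sex or isolation method. Nor do they say that replicates are separate animals, so the p-values below measure only the spread between these libraries, which may be technical.

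Many genes at AD risk loci act in microglia. TREM2 is a lipid-sensing surface receptor that signals through the adaptor TYROBP (DAP12), whose phosphorylated tail recruits the kinase SYK and, downstream, phospholipase C gamma. Inhibitory receptors such as CD33 and the lipid phosphatase INPP5D (SHIP1) oppose that signal. A separate set of risk genes, among them BIN1, PICALM, SORL1 and CD2AP, works in endocytosis and in sorting of cargo, including the amyloid precursor protein, between endosomes, the Golgi and the cell surface.

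Values are CPM, read counts scaled by library size and TMM factor, and a fold change is log2 of the first-named group over the second, ± its standard error. A gene is said to have risen or fallen where edgeR's quasi-likelihood test gave a Benjamini-Hochberg adjusted p under 0.05 over all genes tested. Total counts were 27741882 to 33933068 per microglia library and 29615853 to 35851170 per astrocyte library. Rack1 was 47.2 and 47.8 CPM in AD CKO microglia against 113.3 and 115.1 CPM in AD WT microglia, and 40.4 and 42.0 CPM in CKO microglia against 98.1 and 95.2 CPM in WT microglia, so the targeted gene was low where the labels place the knockout. The summed level of 10 microglia markers was 24310 to 47120 CPM in microglia libraries and 478.6 to 1124 CPM in astrocyte libraries. That of 10 astrocyte markers was 10210 to 24160 CPM in astrocyte libraries and 298.1 to 416.9 CPM in microglia libraries, and no marker of a library's own cell type was at 0. Oligodendrocyte markers were also present, at 6743 to 19020 CPM in astrocyte libraries and 2258 to 8613 CPM in microglia libraries. In AD CKO astrocyte libraries they summed to 19020 and 18910 CPM, above the astrocyte markers at 14570 and 14730 CPM. In CKO they were also above, at 12980 and 13310 CPM against 10210 and 10470 CPM, and in AD WT and WT they were below. Sums of different genes give no share of cells. Values given for astrocytes are those of astrocyte libraries, which held this RNA too. In bulk RNA, fewer cells of a type and less RNA per cell cannot be told apart. Whether the counting used strand is not given in the sources used here, so reads of genes that overlap on opposite strands cannot be told apart. Of the 34 members, 3 share over 10% of their exonic bases with another gene: Abi3 (75.8%), Lilrb4a (35.9%, and a near-identical paralogue exists) and Cass4 (21.2%). In all, 9 members overlap another gene, with smaller shares, of 1.63% to 8.21%, for Zcwpw1, Bin1, Epha1, Ace, Adam17 and Sorl1. The share of bases does not measure how many reads are ambiguous, so the values of these 9 are uncertain by an unknown amount.

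In WT animals, 24 members were higher in microglia than in astrocytes, 7 were lower and 3 did not pass, in a fit of all 16 libraries in which 79% of 20589 genes tested passed, 39.5% higher and 39.4% lower. The libraries of the cell types did not overlap for 32 members, and for 88.8% of all genes. The median log2 difference over the members was 2.33, beside -0.00752 over all genes. The CPM means in this paragraph, and those of Fermt2 in the next, come from that fit, with both cell types scaled together. They therefore differ from the CPM of each cell type scaled alone, as given in later paragraphs. Microglia held far more of the immune receptors and their signalling partners. Cd33, an inhibitory sialic acid receptor, averaged 898.5 ± 14.4 CPM in WT microglia and 2.78 ± 0.053 CPM in WT astrocytes (SD, n = 2 each), a log2 difference of 8.33 ± 0.08. Trem2 averaged 1314 ± 57.3 CPM in WT microglia and 6.33 ± 0.758 CPM in WT astrocytes, a difference of 7.70 ± 0.09, and for Tyrobp it was 7.42 ± 0.08. Differences of the same order were measured for Inpp5d (7.76 ± 0.12), Blnk (7.95 ± 0.10) and Abi3 (6.83 ± 0.08). Cass4, a scaffold of focal adhesions, averaged 60.2 ± 5.09 CPM in WT microglia and had no read in either WT astrocyte library. Set against the 3 counts that 0 reads allow in a library, it was at least 612-fold higher in WT microglia.

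Fermt2, which encodes the integrin activator kindlin-2, ran the other way. It averaged 10.4 ± 0.914 CPM in WT microglia and 358 ± 18.3 CPM in WT astrocytes, a log2 difference of -5.11 ± 0.08. The potassium-dependent sodium/calcium exchanger gene Slc24a4 was also lower in microglia (-4.27 ± 0.25), as were the zinc finger gene Jazf1 (-1.99 ± 0.39), the oxidoreductase gene Wwox (-0.99 ± 0.13), Ace (-0.84 ± 0.10), Sorl1 (-0.63 ± 0.06) and Tmem106b (-0.45 ± 0.06). Snx1 (-0.07), Usp6nl (0.15) and Epha1 (0.10) did not pass. Adamts1 passed with a difference of 0.20 ± 0.08, and lost the call with RLE size factors (0.11), DESeq2 (0.11), no low-count filter (0.15), without either WT astrocyte library (0.20 each), without WT microglia replicate 1 (0.18) and without either AD CKO astrocyte library (0.15 each). The 2 cell types were deposited as separate tables, so cell type and any difference in preparation cannot be told apart. With each cell type scaled alone, levels were also ranked per kilobase of exon, all annotated exons of a gene merged. Merged exons can be longer than the transcripts made, so this order depends on the annotation. Tyrobp was the highest member in WT microglia (1936 CPM per kb), followed by Trem2 (231.5 CPM per kb) and Tspan14 (185.9 CPM per kb). In WT astrocytes the highest was Tspan14 (83.3 CPM per kb), then Fermt2 (78.0 CPM per kb) and Bin1 (40.7 CPM per kb). Oligodendrocyte markers summed to 14320 and 14490 CPM in WT astrocyte libraries and 3141 and 3283 CPM in WT microglia libraries. Their part in the levels of the members was not tested.

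**Figure D1:**
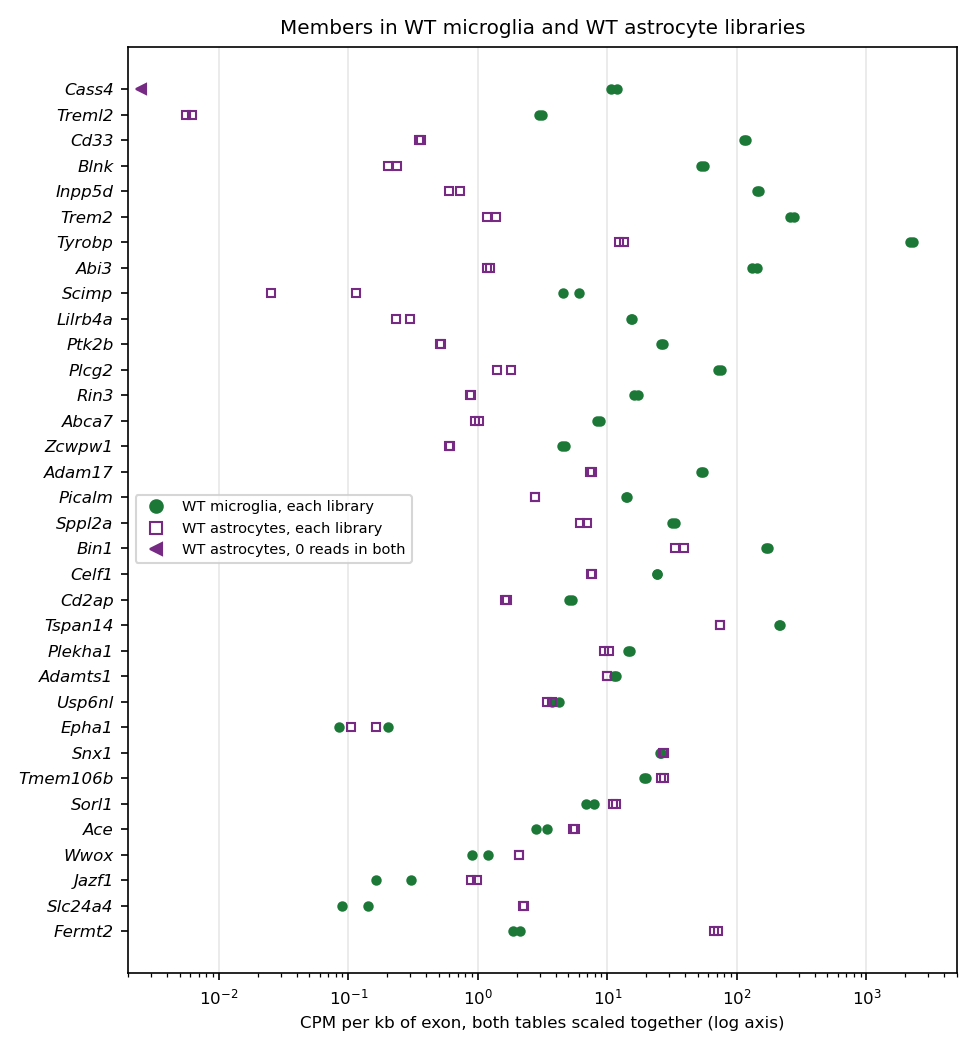
Level of each member per kilobase of exon (CPM per kb, log axis, both tables scaled together) in each WT microglia library (filled circles) and each WT astrocyte library (open squares), ordered by the log2 difference between the cell types. Cass4, at 0 reads in both WT astrocyte libraries, stands at the top by its fitted difference, above the immune receptor and signalling genes, and Fermt2 at the bottom is higher in astrocytes.

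In microglia without the AD model, the knockout was accompanied by lower levels of 14 members and higher levels of 3, and 17 did not pass. Among all 17318 genes tested, 33.6% passed, 17.7% higher and 15.9% lower. The groups did not overlap for 26 members, and for 64.3% of all genes. The median log2 fold change was -0.14 over the members and 0.04 over all genes. In the AD model, AD CKO against AD WT, 11 members fell, 5 rose and 18 did not pass, with 32% of all genes passing, 15% lower and 17% higher. The groups did not overlap for 28 members and for 65.5% of all genes, and the medians were -0.07 over the members and -0.00203 over all genes. Trem2, Lilrb4a and Ptk2b rose in both comparisons. Tyrobp, Blnk, Abi3, Bin1, Adamts1, Abca7, Cass4 and Zcwpw1 fell in both. These 2 comparisons share no library. The summed level of the microglia markers was 26410 and 26280 CPM in AD CKO, 39550 and 39990 CPM in AD WT, 24310 and 24530 CPM in CKO, and 45670 and 47120 CPM in WT. It was thus lower in each knockout group than in its control, as most called members were, and its part in these differences was not tested. Oligodendrocyte markers summed to 8219 and 8613 CPM in CKO, above the 2258 to 3745 CPM of the other 3 groups. They did not move together, since of the 10, 4 rose, 2 fell and 4 did not pass in CKO against WT. Their log2 fold changes there ran from -0.385 to 1.69, with a median of 0.25.

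The 300-base windows around the RefSeq transcription start, from 250 bases before to 50 after, are shown for Trem2, Blnk and Cass4. Trem2 rose and Blnk and Cass4 fell in both knockout comparisons. They were chosen because their windows hold matches to the motifs searched. The windows of Adamts1 and Abca7, which also fell in both, hold none of those motifs. Zcwpw1, which fell in both too, has matches that are not shown. The windows shown are RefSeq sequences of GRCm38.p6, 5′ to 3′ on the gene's strand, with motif matches in capitals. RefSeq windows were matched to 26 of the 34 members. In GENCODE M21 the gene starts of Blnk (chr19:40994535, minus strand) and Cass4 (chr2:172393794, plus strand) lie outside the windows shown.
Trem2, chr17:48346151-48346450, plus strand: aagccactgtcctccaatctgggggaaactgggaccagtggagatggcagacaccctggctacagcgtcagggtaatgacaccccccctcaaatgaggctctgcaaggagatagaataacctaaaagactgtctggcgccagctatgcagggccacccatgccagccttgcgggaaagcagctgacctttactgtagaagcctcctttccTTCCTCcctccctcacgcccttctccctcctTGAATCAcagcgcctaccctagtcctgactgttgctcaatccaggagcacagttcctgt
Blnk, chr19:40994172-40994471, minus strand: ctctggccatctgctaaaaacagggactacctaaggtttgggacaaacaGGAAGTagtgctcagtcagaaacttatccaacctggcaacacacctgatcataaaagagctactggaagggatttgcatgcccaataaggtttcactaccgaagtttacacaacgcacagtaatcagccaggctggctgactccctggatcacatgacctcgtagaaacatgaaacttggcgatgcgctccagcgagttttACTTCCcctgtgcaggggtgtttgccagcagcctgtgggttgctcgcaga
Cass4, chr2:172393394-172393693, plus strand: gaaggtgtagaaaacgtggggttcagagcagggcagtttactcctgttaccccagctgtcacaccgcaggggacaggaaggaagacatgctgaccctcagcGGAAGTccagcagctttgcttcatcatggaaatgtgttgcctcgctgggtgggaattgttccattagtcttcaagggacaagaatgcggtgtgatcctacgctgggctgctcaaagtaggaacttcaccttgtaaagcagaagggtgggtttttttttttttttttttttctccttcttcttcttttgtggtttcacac

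The motifs searched, on both strands, were GAGGAA and GGAAGT (cores of ETS factors, the family of PU.1), TGANTCA and the interferon-stimulated response element. TGANTCA is a loosened form of the AP-1 element, which has C or G in the middle, and allows any base there. The ETS cores share the letters GGAA and can overlap. GAGGAA was in 38.2% of the members' windows and in 28.3% of all 32851 windows, GGAAGT in 23.5% and 23.8%, TGANTCA in 2.94% and 7.81%, and the interferon-stimulated response element in 5.88% and 3.44%. TGANTCA was found in the Trem2 window and in no other member's window. The Trem2 match reads TGAATCA, so it is not the AP-1 element itself. A match is a description of the letters, not a site.

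Among the receptors, Trem2 and its adaptor Tyrobp moved in opposite directions with the knockout. Trem2 (chr17:48346401-48354147, plus strand, GRCm38, GENCODE M21) was 2063 and 2226 CPM in AD CKO, 1577 and 1572 CPM in AD WT, 1718 and 1810 CPM in CKO, and 1109 and 1181 CPM in WT. No groups overlapped, and every knockout library was above every library with intact Rack1. It rose by 0.45 ± 0.04 in AD CKO against AD WT (adjusted p = 2.8e-09, edgeR) and by 0.62 ± 0.04 in CKO against WT (adjusted p = 3.39e-12). Tyrobp (chr7:30413760-30417585, plus strand) was 1185 and 1327 CPM in AD CKO, 2160 and 2151 CPM in AD WT, 887 and 921 CPM in CKO, and 1318 and 1264 CPM in WT. The AD WT libraries were the highest and the CKO libraries the lowest, with AD CKO and WT overlapping. Tyrobp fell by 0.78 ± 0.04 on the log2 scale in AD CKO against AD WT (adjusted p = 3.07e-12) and by 0.51 ± 0.04 in CKO against WT (adjusted p = 2.25e-09).

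The ratio of Trem2 to Tyrobp CPM within a library was 1.74 and 1.68 in AD CKO, 0.73 and 0.731 in AD WT, 1.94 and 1.97 in CKO, and 0.841 and 0.934 in WT. The ratio was higher in all 4 knockout libraries than in the 4 others. CPM is not scaled by transcript length, so the ratio is read between groups only. Per kilobase of all annotated exons merged (667 bases for Tyrobp, 4946 for Trem2), Tyrobp was 1884 and Trem2 433.6 CPM per kb in AD CKO microglia. Merged exons can be longer than the transcripts made, so these values do not settle which of the genes had more transcripts. Lilrb4a, an inhibitory receptor of the leukocyte immunoglobulin-like family, was 478.6 and 443.6 CPM in AD CKO, 168.3 and 161.9 CPM in AD WT, 266.6 and 266.1 CPM in CKO, and 70.3 and 69.5 CPM in WT. The groups did not overlap, and knockout and model each went with a higher level. It rose by 1.48 ± 0.05 in AD CKO against AD WT and by 1.93 ± 0.05 in CKO against WT, with adjusted p of 2.57e-19 and 8.21e-22 by edgeR. The summed level of 8 markers of border macrophages and monocytes was also higher with the knockout, at 432.6 and 421.5 CPM in AD CKO, 201.3 and 201.9 CPM in AD WT, 548.2 and 545.4 CPM in CKO, and 235.3 and 231.4 CPM in WT. Of the 8, 5 rose in AD CKO against AD WT and 6 in CKO against WT, and their part in the rises of Trem2 and Lilrb4a was not tested. Cd33 did not pass in either (0.09 and 0.07). Treml2, a receptor of the TREM family, fell in AD CKO against AD WT (-0.35 ± 0.12), but did not pass without replicate 1 of AD WT (-0.31) or 2 (-0.38) or replicate 1 of AD CKO (-0.27), and did not pass in CKO against WT (-0.20).

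**Figure D2:**
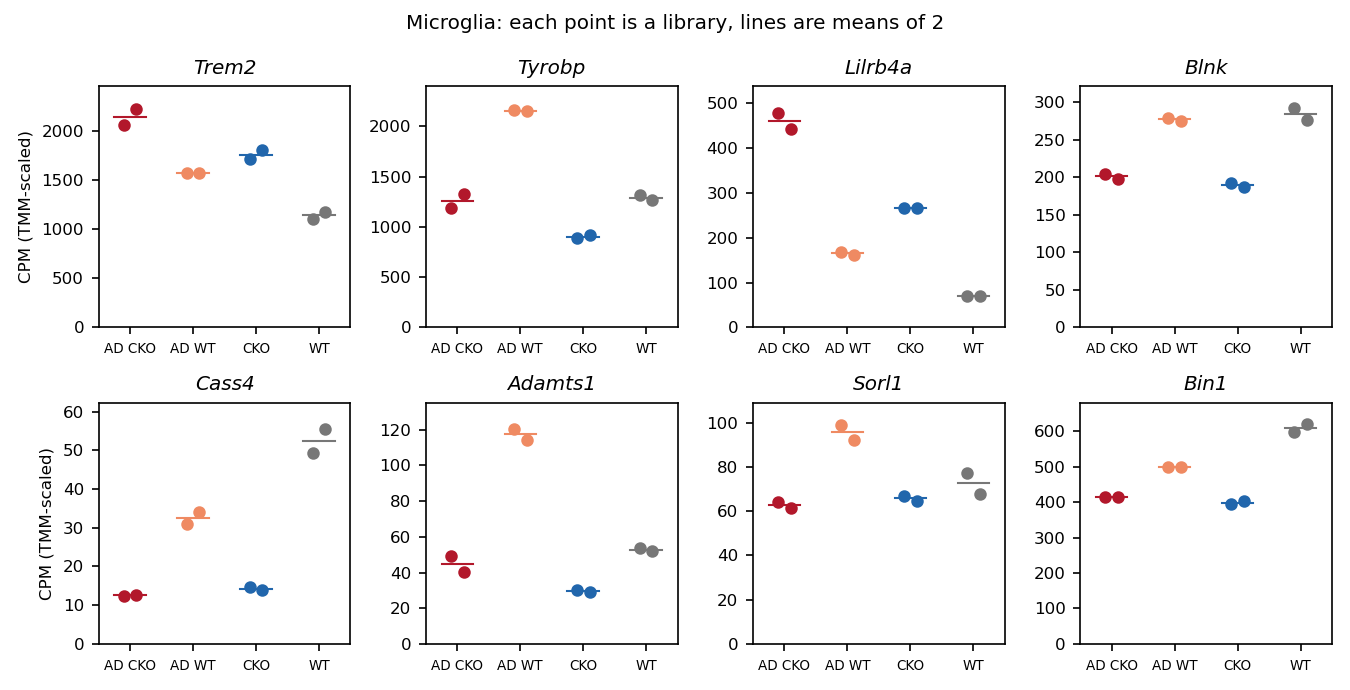
CPM of 8 members in each microglia library (points) with the mean of each group (lines, n = 2), groups in the order AD CKO, AD WT, CKO, WT. Trem2 and Lilrb4a are higher in the knockout group of each pair, while Tyrobp, at 887 to 1327 CPM in knockout libraries, is lower than in the matching control.

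Of 6 intracellular signalling members, 3 fell and 1 rose in CKO against WT, and 2 fell and 2 rose in AD CKO against AD WT. Blnk, an adaptor that links SYK to phospholipase C gamma, was 204.8 and 197.9 CPM in AD CKO, 279.2 and 275.3 CPM in AD WT, 192.3 and 186.4 CPM in CKO, and 292.3 and 276.6 CPM in WT. The knockout libraries lay below all others, and the fold changes were -0.46 ± 0.05 in AD CKO against AD WT and -0.59 ± 0.05 in CKO against WT. Ptk2b, a calcium-responsive focal adhesion kinase, was 268 and 264 CPM in AD CKO, 175.3 and 173.5 CPM in AD WT, 253.1 and 243.9 CPM in CKO, and 166.2 and 174 CPM in WT. Here the knockout libraries lay above all others, with a rise of 0.61 ± 0.05 in AD CKO against AD WT and of 0.55 ± 0.05 in CKO against WT. Plcg2, phospholipase C gamma 2, rose in AD CKO against AD WT (0.23 ± 0.05) and was -0.02 ± 0.05 in CKO against WT. Inpp5d fell in CKO against WT (-0.18 ± 0.04) and was -0.04 ± 0.04 in AD CKO against AD WT. Abi3, an actin-regulating adaptor, fell in both (-0.25 ± 0.04 in the AD model and -0.37 ± 0.04 without it). Scimp, a transmembrane adaptor, stayed between 4.29 and 6.30 CPM and passed in no microglia comparison.

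Endocytosis and sorting members that passed were lower with the knockout. Bin1, a membrane-bending protein of endocytosis, was 414.6 and 413.5 CPM in AD CKO, 500.1 and 498.6 CPM in AD WT, 393.7 and 401.8 CPM in CKO, and 598.4 and 619.2 CPM in WT. No groups overlapped, and the fall was 0.27 ± 0.04 on the log2 scale in AD CKO against AD WT and 0.61 ± 0.04 in CKO against WT. Sorl1, a receptor that sorts amyloid precursor protein with the retromer, was 64.0 and 61.3 CPM in AD CKO, 99.1 and 92.3 CPM in AD WT, 66.7 and 64.8 CPM in CKO, and 77.3 and 67.9 CPM in WT. It stood highest in AD WT. The fold change was -0.61 ± 0.07 in AD CKO against AD WT (adjusted p = 3.9e-08, edgeR), and -0.14 ± 0.07 in CKO against WT, which did not pass. Usp6nl, a GTPase-activating protein of Rab5, fell in CKO against WT (-0.54 ± 0.10). Picalm, a clathrin adaptor (-0.15), and Cd2ap, an actin-linked adaptor (-0.22), fell in that comparison too. Picalm did not pass without replicate 2 of WT (-0.14) or replicate 2 of CKO (-0.15), nor Cd2ap without replicate 1 of WT (-0.19). Rin3, an exchange factor of Rab5, and Snx1, a sorting nexin, did not pass in either knockout comparison.

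Among 6 proteases and lysosomal genes, Adamts1, a secreted metalloprotease, changed most. This gene (chr16:85793827-85803113, minus strand) was 49.2 and 40.2 CPM in AD CKO, 120.7 and 114.4 CPM in AD WT, 30.3 and 29.0 CPM in CKO, and 53.5 and 52.2 CPM in WT. AD WT stood above all other groups and CKO below them. The fold change was -1.40 ± 0.08 in AD CKO against AD WT (adjusted p = 1.46e-13, edgeR) and -0.83 ± 0.08 in CKO against WT (adjusted p = 5.43e-09). Tspan14, a tetraspanin that escorts ADAM10, fell in CKO against WT (-0.16 ± 0.04). Ace, angiotensin-converting enzyme, fell there as well (-0.40 ± 0.13), a call not made without replicate 2 of WT (-0.25) or replicate 2 of CKO (-0.38). Adam17, a sheddase that cleaves TREM2, rose in AD CKO against AD WT by 0.14 ± 0.05, and did not pass with DESeq2 (0.13) or without replicate 1 of CKO (0.12), replicate 2 of AD WT (0.10) or replicate 1 of AD CKO (0.05). Sppl2a, an intramembrane protease, and Tmem106b, a lysosomal membrane protein, passed in neither knockout comparison.

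Cass4 was 12.4 and 12.6 CPM in AD CKO, 30.9 and 33.97 CPM in AD WT, 14.7 and 13.9 CPM in CKO, and 49.2 and 55.6 CPM in WT. The 4 knockout libraries were all below the 4 others, and the fold changes were -1.37 ± 0.10 in AD CKO against AD WT (adjusted p = 1.27e-11, edgeR) and -1.87 ± 0.10 in CKO against WT (adjusted p = 5.54e-15). Abca7, a lipid transporter, was 37.7 and 42.3 CPM in AD CKO, 53.0 and 47.1 CPM in AD WT, 37.4 and 37.7 CPM in CKO, and 51.6 and 48.7 CPM in WT. It fell by 0.42 ± 0.08 in CKO against WT and by 0.32 ± 0.08 in AD CKO against AD WT, the second not passing without replicate 1 of AD WT (-0.23). Zcwpw1, a reader of histone methylation, fell by 0.60 ± 0.11 and 0.55 ± 0.11 on the same scale in the same order. Fermt2 fell in AD CKO against AD WT (-0.75 ± 0.14), with 9.58 and 10.1 CPM in AD CKO, 18.6 and 14.5 CPM in AD WT, 11.0 and 10.7 CPM in CKO, and 9.60 and 8.49 CPM in WT. AD WT stood alone above the other groups. Markers of vessel cells were also highest in AD WT microglia libraries. The 8 endothelial markers summed to 520.9 and 516.4 CPM in AD CKO, 751.7 and 745.8 CPM in AD WT, 484.1 and 473.2 CPM in CKO, and 427 and 426.7 CPM in WT. The 7 mural markers summed to 198.6 and 197.9 CPM in AD CKO, 281.5 and 292.2 CPM in AD WT, 208.5 and 207.1 CPM in CKO, and 185.6 and 189.5 CPM in WT. All 8 and all 7 rose in AD WT against WT, and 6 of the 8 and 5 of the 7 fell in AD CKO against AD WT. The 10 astrocyte markers summed to 306.1 and 298.1 CPM in AD CKO and 409.8 and 416.9 CPM in AD WT. Their sums were 373.7 and 375.7 CPM in CKO and 323.7 and 328.5 CPM in WT. Of these 10, 3 rose and 1 fell in AD WT against WT, and 8 fell and 0 rose in AD CKO against AD WT. The part of these marker lists in the Fermt2 and Adamts1 values was not tested.

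The AD model itself, AD WT against WT, went with 8 members higher and 8 lower in microglia, where 19.3% of all genes passed, 10.7% higher and 8.62% lower. The groups did not overlap for 19 members and for 57% of all genes. Higher were Trem2 (0.46 ± 0.04), Tyrobp (0.74 ± 0.04), Treml2 (0.57 ± 0.12), Lilrb4a (1.24 ± 0.05), Sorl1 (0.40 ± 0.07), Adamts1 (1.15 ± 0.08), Fermt2 (0.87 ± 0.14) and Plekha1 (0.39 ± 0.05), the last a phosphoinositide-binding protein. Lower were Cd33 (-0.22 ± 0.04), Plcg2 (-0.24 ± 0.05), Bin1 (-0.29 ± 0.04), Tspan14 (-0.23 ± 0.04), Cass4 (-0.69 ± 0.09), Inpp5d (-0.16 ± 0.04), Abi3 (-0.16 ± 0.04) and the RNA-binding gene Celf1 (-0.15 ± 0.05). Of these, 3 calls rest on single libraries. Inpp5d did not pass without replicate 2 of WT (-0.12) or replicate 1 of AD WT (-0.13), and Abi3 did not pass without replicate 2 of WT (-0.10) or replicate 1 or 2 of AD WT (-0.16 each). Celf1 was lost with no low-count filter (-0.13) and without either WT (-0.14 and -0.15), either AD WT (-0.13 and -0.15), replicate 1 of CKO (-0.13) or replicate 1 of AD CKO (-0.13).

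Within knockout microglia, AD CKO against CKO, 7 members rose and 2 fell, with 14.7% of all genes passing, 7.73% higher and 6.92% lower. Groups were apart for 25 members and for 52.7% of all genes. Trem2 (0.28 ± 0.04), Tyrobp (0.48 ± 0.04), Lilrb4a (0.79 ± 0.05) and Adamts1 (0.59 ± 0.08) rose, and Cd33 fell (-0.20 ± 0.04). Cd33 did not pass without replicate 1 of CKO (-0.14). The remaining 4 calls did not hold under every alternative. Treml2 (0.42) was lost without replicate 1 of CKO (0.31) or replicate 2 of AD CKO (0.32), and Plekha1 (0.19) without replicate 2 of CKO (0.15) or replicate 2 of AD CKO (0.19). Rin3 (-0.21) was lost with DESeq2 (-0.19) and without replicate 2 of CKO (-0.16) or replicate 1 or 2 of AD CKO (-0.19 each). Sppl2a (0.14) was lost with a filter of 1 CPM (0.13) and without replicate 2 of CKO (0.09), either AD WT library (0.15 each) or either AD CKO library (0.18 and 0.14).

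The difference of the knockout effect in and out of the AD model, tested as an interaction, passed for 10 members, 6 negative and 4 positive, with 12.7% of all genes passing, 7.19% negative and 5.53% positive. A negative term is a knockout fold change that, with its sign, was lower in the AD model, which is not always a weaker effect. Negative terms were found for Fermt2 (-1.01 ± 0.20), Adamts1 (-0.56 ± 0.11), Sorl1 (-0.47 ± 0.09), Lilrb4a (-0.45 ± 0.07), Tyrobp (-0.26 ± 0.06) and Trem2 (-0.18 ± 0.06). With the knockout, Adamts1 and Tyrobp fell further in the model, Fermt2 and Sorl1 fell only there, and Lilrb4a and Trem2 rose less. Positive terms were found for Cass4 (0.50 ± 0.14), Bin1 (0.34 ± 0.06), Plcg2 (0.25 ± 0.07) and Tspan14 (0.23 ± 0.06). The count ran from 6 to 11 when single libraries were left out, with 6 without replicate 1 of AD WT. Without that library Trem2 (-0.18), Plcg2 (0.24), Tspan14 (0.20) and Cass4 (0.43) did not pass. The Trem2 term also did not pass with RLE size factors (-0.17), DESeq2 (-0.17), no low-count filter (-0.16), or without replicate 1 of WT (-0.13), replicate 2 of CKO (-0.14), replicate 2 of AD WT (-0.18) or replicate 1 of AD CKO (-0.11). Plcg2 was also lost without replicate 2 of WT (0.20), replicate 2 of CKO (0.22) or replicate 2 of AD WT (0.25), and Cass4 without replicate 2 of WT (0.41) or replicate 2 of CKO (0.45).

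**Figure D3:**
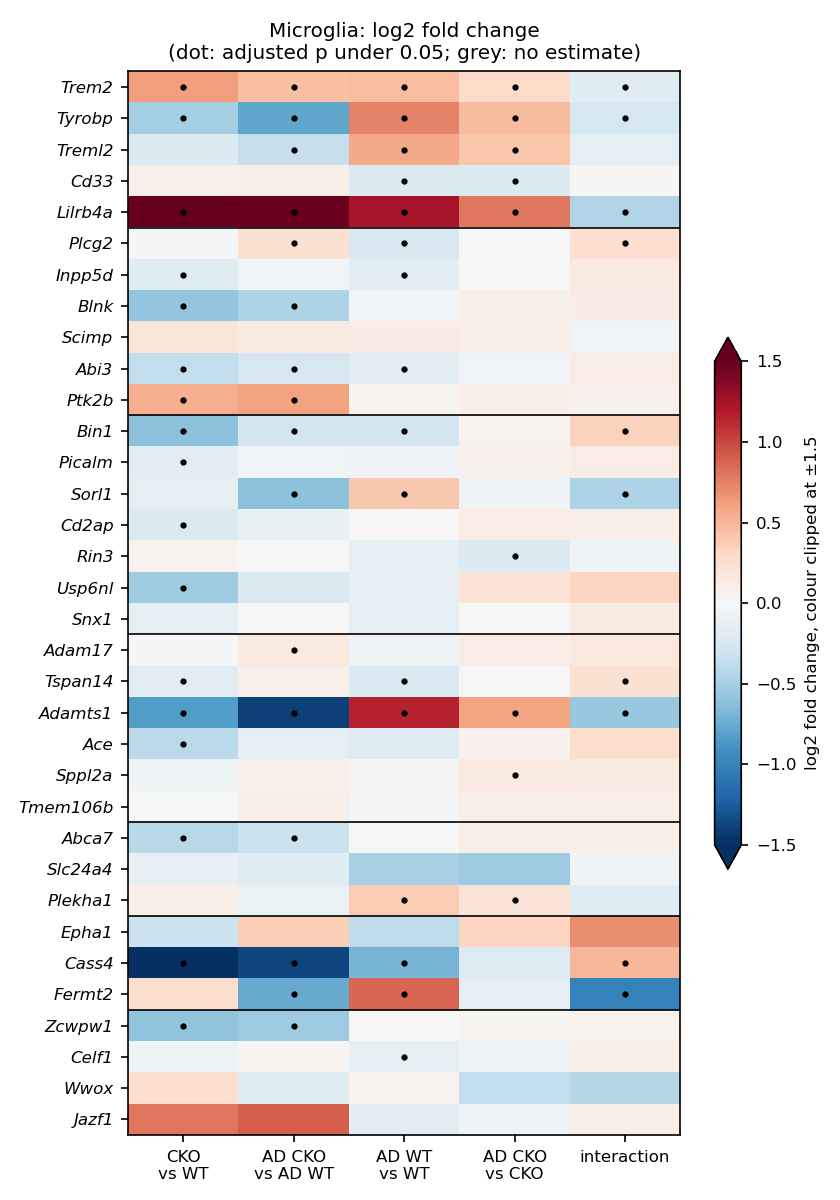
Log2 fold change of the 34 members in the 5 microglia comparisons, grouped by role (lines), with colour clipped at ±1.5 and dots where adjusted p was under 0.05 (edgeR). Blnk, Bin1, Cass4 and Adamts1 are blue in both knockout columns, whereas Trem2, Lilrb4a and Ptk2b are red in both.

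Genes that work with the members moved in both directions in microglia. Of 18 TREM2 signalling partners, 8 fell and 2 rose in CKO against WT, and 3 fell and 5 rose in AD CKO against AD WT. Siglech, a TYROBP-coupled receptor that is also a microglia marker, fell by 1.35 ± 0.04 in AD CKO against AD WT and by 1.96 ± 0.04 in CKO against WT, and Hcst, the adaptor DAP10, rose in CKO against WT (0.88). Lyn, a Src-family kinase, rose in AD CKO against AD WT (0.38). Of 22 retromer and endocytosis partners, 10 fell and 3 rose in CKO against WT. Among them the retromer sorting nexins Snx5 (-0.45), Snx6 (-0.54) and Snx2 (-0.38) fell, as did the recycling GTPase gene Rab11a (-0.34). In AD CKO against AD WT, 6 of the 22 fell and 8 rose, with the clathrin light chain gene Clta falling (-0.40) and Snx3 rising (0.32). Of 18 further risk locus orthologues, 9 fell and 5 rose in CKO against WT, and 8 fell and 5 rose in AD CKO against AD WT. Sort1, a progranulin receptor, fell in both (-0.59 in the AD model and -0.82 without it), and so did Grn, progranulin (-0.63 and -0.60), and Ank, a pyrophosphate transporter (-1.01 and -1.19). The shares that passed in CKO against WT were 55.6% of the TREM2 partners, 59.1% of the retromer and endocytosis partners and 77.8% of the further risk locus orthologues, beside 33.6% of all genes. In AD CKO against AD WT they were 44.4%, 63.6% and 72.2% in the same order, beside 32% of all genes.

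In astrocytes, whose Rack1 the design does not target, 33 members were tested, since Treml2 had at most 13 reads in a library and failed the low-count filter. In CKO against WT 15 rose, 13 fell and 5 did not pass. Here 64% of all 20116 genes tested passed, 31.6% higher and 32.4% lower, and the groups did not overlap for 28 members and for 81.1% of all genes. The median log2 fold change was 0.04 over the members and 0.01 over all genes. In AD CKO against AD WT 14 rose, 4 fell and 15 did not pass, with 52.1% of all genes passing, 25.1% higher and 27% lower. Groups were apart for 26 members and for 76% of all genes. Rack1 itself was 54.7 and 53.2 CPM in AD CKO and 76.6 and 72.9 CPM in AD WT astrocytes, and 102.4 and 95.7 CPM in CKO and 61.1 and 57.9 CPM in WT astrocytes.

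Most members that were high in microglia rose in CKO against WT and in AD WT against WT astrocytes. Split at a 16-fold difference in WT cells, a limit set after the values were seen, 13 members were microglia-high. Treml2, Scimp and Cass4, with a mean of at most 3 counts in the WT astrocyte libraries, are left out of the counts that follow, since the first was not tested and the other 2 passed the filter only through higher groups. In CKO against WT, 9 of the remaining 10 rose and 0 fell, with a median of 1.85, while of the other 21, 4 rose and 13 fell, with a median of -0.37. Of all genes, 31.6% rose and 32.4% fell there. One of the 9, Rin3, did not pass with DESeq2 or without any of the 4 libraries compared. In AD WT against WT, 9 of the 10 rose and 0 fell (median 1.15), while 2 of the other 21 rose and 9 fell (median -0.19), where 20% of all genes rose and 18% fell. One of these 9, Plcg2, did not pass with DESeq2 or without single libraries. The WT astrocyte libraries entered both the split and the comparisons against WT, so the counts are a description. In AD CKO against AD WT, 6 of the 10 rose and 1 fell, and 8 of the other 21 rose and 3 fell. Of all genes, 25.1% rose and 27% fell there. In AD CKO against CKO, 3 of the 10 rose and 4 fell, and 13 of the other 21 rose and 3 fell. There 31.4% of all genes rose and 28.4% fell. The summed level of the microglia markers in astrocyte libraries was 875.8 and 887.6 CPM in AD CKO, 895.2 and 927.1 CPM in AD WT, 1098 and 1124 CPM in CKO, and 485.5 and 478.6 CPM in WT. This sum was lowest in WT, as were Trem2, Tyrobp, Cd33, Lilrb4a, Blnk and Abi3. Of the 10 markers, 9 rose and 1 fell in CKO against WT, and likewise in AD WT against WT. In AD CKO against AD WT 6 rose and 2 fell, with log2 fold changes from -1.44 to 1.48. In AD CKO against CKO 4 rose and 6 fell. The part of these markers in the members' differences was not tested. Astrocyte markers also differed, at 14570 and 14730 CPM in AD CKO, 22790 and 23550 CPM in AD WT, 10210 and 10470 CPM in CKO, and 23770 and 24160 CPM in WT. Endothelial markers were highest in CKO, at 4434 and 4379 CPM, against 1700 to 2393 CPM in the other groups.

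Trem2 was 75.5 and 68.5 CPM in AD CKO, 46.9 and 39.9 CPM in AD WT, 128 and 121 CPM in CKO, and 7.76 and 6.56 CPM in WT astrocyte libraries. All 4 groups were apart, with WT far below the rest. The log2 fold change was 0.73 ± 0.08 in AD CKO against AD WT (adjusted p = 2.89e-07, edgeR), 4.12 ± 0.10 in CKO against WT (adjusted p = 3e-17) and 2.60 ± 0.10 in AD WT against WT (adjusted p = 4.09e-13). Tyrobp was 41.9 and 42.4 CPM in AD CKO, 74.3 and 67.0 CPM in AD WT, 86.5 and 76.6 CPM in CKO, and 9.32 and 10.1 CPM in WT. It fell in AD CKO against AD WT (-0.75 ± 0.07) and rose in CKO against WT (3.06 ± 0.08). With both tables scaled together, Trem2 in astrocyte libraries amounted to 2.67% of its microglia level in AD CKO, 2.13% in AD WT, 5.57% in CKO and 0.482% in WT. For Tyrobp the shares were 2.66%, 2.53%, 7.12% and 0.581% in the same group order.

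Lilrb4a was 12.8 and 14.1 CPM in AD CKO, 3.78 and 3.34 CPM in AD WT, 15.5 and 16.8 CPM in CKO, and 1.77 and 1.39 CPM in WT, and rose by 1.91 ± 0.14 in AD CKO against AD WT and by 3.36 ± 0.16 in CKO against WT. Both knockout groups stood above both groups with intact Rack1. Cd33 rose by 0.73 ± 0.12 and 2.23 ± 0.14 in the same comparisons. Inpp5d was highest in the AD model, with 19.7 and 24.2 CPM in AD CKO, 12.1 and 11.7 CPM in AD WT, 5.95 and 8.19 CPM in CKO, and 5.18 and 6.28 CPM in WT. CKO and WT overlapped, and the 2 AD groups were above both. Its fold change was 0.88 ± 0.13 in AD CKO against AD WT and did not pass in CKO against WT (0.29 ± 0.16). Blnk (1.82 ± 0.21), Abi3 (1.88 ± 0.12), Ptk2b (0.69 ± 0.16) and Plcg2 (0.38 ± 0.13) rose in CKO against WT. The Plcg2 call was not made without replicate 2 of WT (0.20) or replicate 1 of CKO (0.36). Plcg2 rose in AD CKO against AD WT (0.63 ± 0.12), while Blnk (0.09), Abi3 (-0.18) and Ptk2b (0.02) did not pass.

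Scimp and Cass4 passed the low-count filter through their higher groups. Scimp had 12 and 13 reads in AD CKO, 13 and 19 in AD WT, 45 and 36 in CKO, and 4 and 1 in WT. Cass4 had estimated counts of 9.57 and 14.21 in AD CKO, 5.80 and 7.31 in AD WT, 3.08 and 9.85 in CKO, and 0 in both WT libraries, where 3 counts would be 0.0927 to 0.104 CPM. Both were among the members that rose in CKO against WT and in AD WT against WT. The Cass4 calls were lost without replicate 2 of WT or replicate 2 of CKO in CKO against WT (adjusted p = 0.05 and 0.0904, edgeR) and without replicate 1 or 2 of WT in AD WT against WT (adjusted p = 0.0764 and 0.095, edgeR). The Scimp call in AD WT against WT was lost without replicate 2 of WT or replicate 2 of AD WT (adjusted p = 0.114 and 0.0605, edgeR). Their fitted fold changes against WT rest on a group at or near 0 and are no measure of size.

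**Figure D4:**
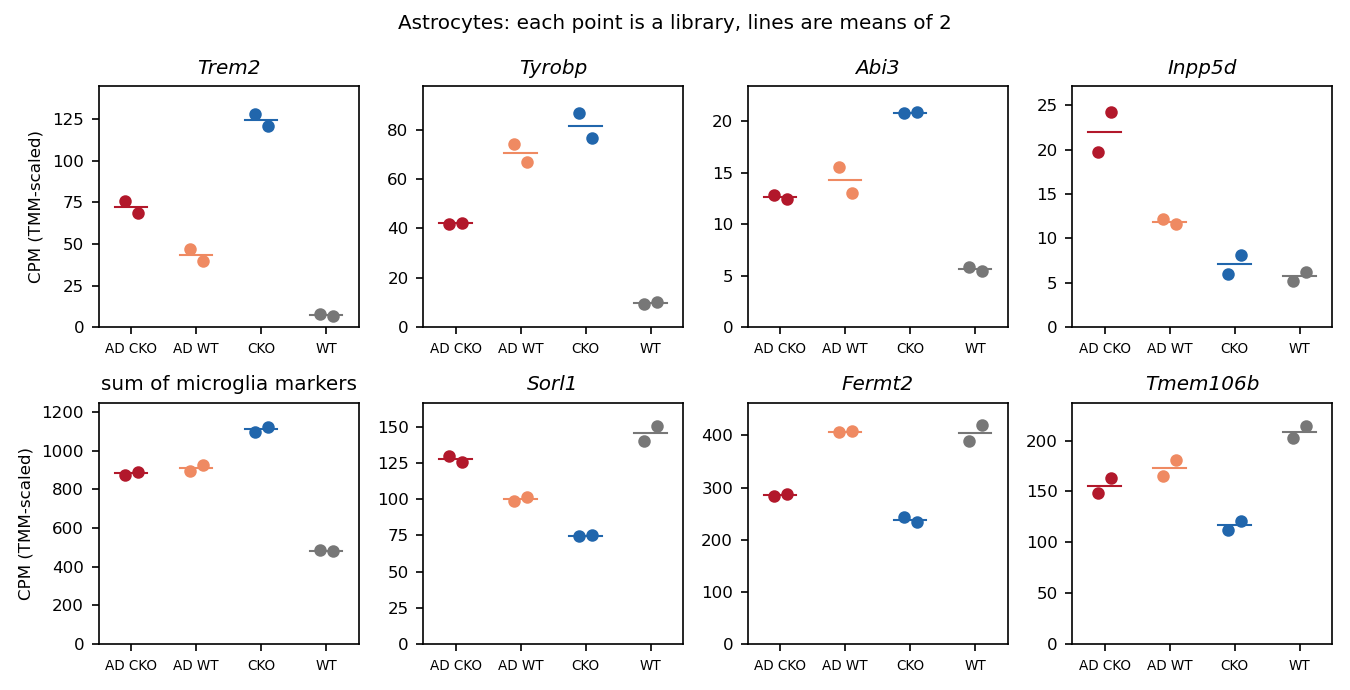
CPM of 7 members and the summed CPM of the microglia markers in each astrocyte library (points) with the mean of each group (lines, n = 2), groups in the order AD CKO, AD WT, CKO, WT. Trem2, Tyrobp, Abi3 and the marker sum are lowest in WT, at 478.6 to 485.5 CPM for the sum, whereas Sorl1, Fermt2 and Tmem106b are lowest in CKO.

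Most other members were lower in CKO astrocytes than in WT astrocytes. Sorl1 was 129.8 and 125.5 CPM in AD CKO, 98.5 and 101.7 CPM in AD WT, 74.4 and 75.2 CPM in CKO, and 140.4 and 150.6 CPM in WT. The 4 groups were apart, and the order of knockout and control was opposite with and without the model. Sorl1 rose in AD CKO against AD WT (0.35 ± 0.05, adjusted p = 8.53e-06, edgeR) and fell in CKO against WT (-0.96 ± 0.05, adjusted p = 5.23e-13). Bin1, Usp6nl, Abca7, Plekha1 and Celf1 likewise rose in AD CKO against AD WT (0.53, 0.64, 0.71, 0.45 and 0.29) and fell in CKO against WT (-0.19, -0.37, -0.47, -0.42 and -0.38). The interaction passed for each of the 6. The Bin1 fall was lost with a filter of 1 CPM (-0.17) and without replicate 1 of WT (-0.07) or replicate 2 of CKO (-0.15), and the Abca7 fall without replicate 2 of WT (-0.42) or replicate 2 of CKO (-0.33). Astrocyte markers, as given above, were lower in each knockout group than in its control. Oligodendrocyte markers in astrocyte libraries ran in another order, at 19020 and 18910 CPM in AD CKO, 6743 and 6942 CPM in AD WT, 12980 and 13310 CPM in CKO, and 14320 and 14490 CPM in WT. All 10 of them rose in AD CKO against AD WT, all 10 fell in AD WT against WT, and 2 rose and 6 fell in CKO against WT. Sorl1 and Bin1 moved in the same directions, and the part of either marker list in these differences was not tested.

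Fermt2 fell in both knockout comparisons, with 284 and 287.3 CPM in AD CKO, 405.7 and 407.6 CPM in AD WT, 243.1 and 233.9 CPM in CKO, and 390 and 419.6 CPM in WT. The knockout libraries lay below all others, and AD WT and WT overlapped. The fold change was -0.51 ± 0.05 in AD CKO against AD WT (adjusted p = 3.72e-09, edgeR) and -0.76 ± 0.05 in CKO against WT (adjusted p = 1.57e-12). Tspan14 fell in both as well (-0.39 ± 0.05 and -0.92 ± 0.05). Tmem106b was 148.2 and 163.2 CPM in AD CKO, 165.1 and 181 CPM in AD WT, 112.1 and 120.9 CPM in CKO, and 202.6 and 214.7 CPM in WT. Its fall in CKO against WT was 0.84 ± 0.06 on the log2 scale. The fall in AD CKO against AD WT (-0.15 ± 0.06) was lost with RLE size factors (-0.12), DESeq2 (-0.12), without either WT library (-0.14 each), replicate 2 of AD WT (-0.07) or replicate 1 of AD CKO (-0.07).

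Adamts1, which fell in both knockout comparisons in microglia, rose in both in astrocytes, a difference between cell types that was not tested. It was 68.3 and 73.0 CPM in AD CKO, 56.5 and 56.4 CPM in AD WT, 87.3 and 95.3 CPM in CKO, and 59.6 CPM in both WT astrocyte libraries, and its rise was 0.32 ± 0.06 in AD CKO against AD WT and 0.62 ± 0.06 in CKO against WT. Endothelial markers, as given above, were highest in CKO too, and their part was not tested. Adam17 (-0.52 ± 0.06), Ace (-0.39 ± 0.08), Wwox (-0.44 ± 0.09) and Snx1 (-0.16 ± 0.05) fell in CKO against WT, and Cd2ap (0.89 ± 0.07) and Picalm (0.39 ± 0.06) rose. The Snx1 call was lost without replicate 2 of WT (-0.15) or replicate 1 of CKO (-0.14). Rin3 (0.42) and Sppl2a (0.18) also rose there, but Rin3 was lost with DESeq2 (0.43) and without any of the 4 libraries compared (0.41 to 0.43), and Sppl2a with DESeq2 (0.19) and without replicate 1 of WT (0.08), replicate 2 of CKO (0.09) or either AD CKO library (0.18 each). Rin3 (0.70 ± 0.16) and Slc24a4 (0.95 ± 0.11) rose in AD CKO against AD WT. Epha1, an ephrin receptor, and Zcwpw1 passed in no comparison among astrocytes.

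The AD model alone, AD WT against WT, went with 13 members higher and 9 lower in astrocytes, with 38% of all genes passing, 20% higher and 18% lower. The groups did not overlap for 28 members and for 69.2% of all genes. Beside the microglia-high members, Ace (0.56 ± 0.07) and Cd2ap (0.21 ± 0.07) rose. Bin1 (-0.82 ± 0.07), Usp6nl (-0.62 ± 0.08), Sorl1 (-0.54 ± 0.05), Plekha1 (-0.36 ± 0.07), Tmem106b (-0.27 ± 0.06), Tspan14 (-0.22 ± 0.05), Snx1 (-0.19 ± 0.05), Slc24a4 (-0.41 ± 0.12) and Celf1 (-0.23 ± 0.06) fell. All 10 oligodendrocyte markers fell as well, and their part was not tested. Plcg2 (0.35), among the microglia-high members, was lost with DESeq2 (0.34) and without replicate 2 of WT (0.17), replicate 1 or 2 of AD WT (0.41 and 0.28) or replicate 1 or 2 of AD CKO (0.34 each). Slc24a4 was lost without replicate 2 of AD WT (-0.35), Celf1 without replicate 1 of AD WT (-0.15), and Cd2ap with DESeq2 (0.20) and without any of the 4 libraries compared (0.18 to 0.23). In AD CKO against CKO, 16 members rose and 8 fell, with 59.8% of all genes passing, 31.4% higher and 28.4% lower. Groups were apart for 30 members and for 79.9% of all genes. Inpp5d (1.64 ± 0.14), Ace (0.96 ± 0.08), Jazf1 (0.83 ± 0.23), Abca7 (0.82 ± 0.15), Sorl1 (0.77 ± 0.05) and Adam17 (0.68 ± 0.06) rose, and Tyrobp (-0.95 ± 0.07), Trem2 (-0.79 ± 0.08), Abi3 (-0.72 ± 0.11) and Cd2ap (-0.53 ± 0.07) fell.

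The interaction passed for 26 of 33 members in astrocytes, 14 positive and 12 negative, with 57.8% of all genes passing, 29.5% positive and 28.3% negative. The largest negative terms outside Scimp and Cass4 were those of Tyrobp (-3.81 ± 0.11) and Trem2 (-3.40 ± 0.13), and the largest positive ones those of Sorl1 (1.31 ± 0.08) and Abca7 (1.18 ± 0.21). Among the 10 microglia-high members counted above, 7 terms were negative and 1 positive, and among the other 21, 3 were negative and 13 positive. As for the pairwise counts against WT, the WT astrocyte libraries entered both the split and the interaction, so this is a description.

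**Figure D5:**
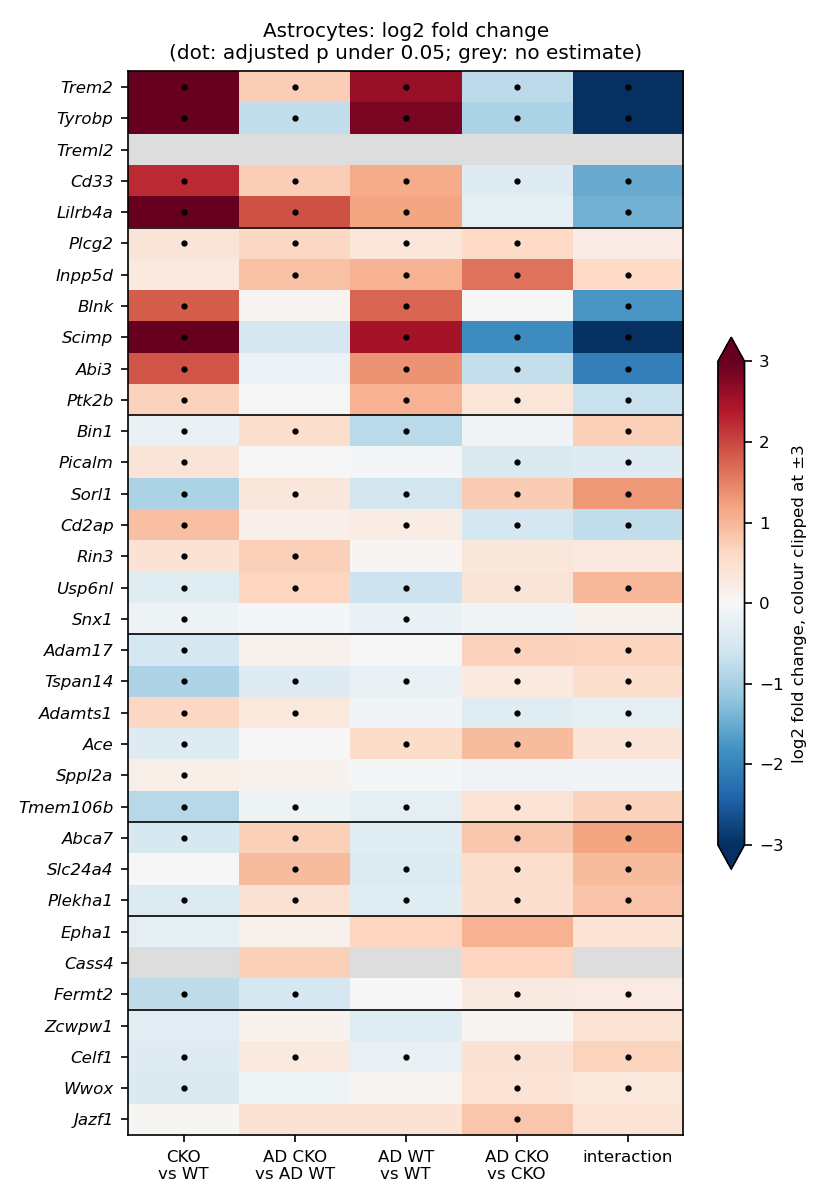
Log2 fold change of the members in the 5 astrocyte comparisons, grouped by role (lines), with dots where adjusted p was under 0.05 (edgeR) and grey where no estimate is shown. Trem2, Tyrobp, Cd33 and Lilrb4a are red in the CKO against WT and AD WT against WT columns and blue in the interaction column, while Sorl1, Usp6nl and Plekha1 run the other way.

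In astrocytes, 11 of the 18 TREM2 signalling partners rose and 5 fell in CKO against WT, and 8 rose and 4 fell in AD CKO against AD WT. Lat2 (3.04), Lcp2 (2.80) and Ptpn6 (1.58), which encode 2 adaptors and a phosphatase of immune cells, rose in CKO against WT, and the kinase gene Syk rose in AD CKO against AD WT (1.70). These genes were also higher in WT microglia than in WT astrocytes, as were 17 of the 18. Of the 22 retromer and endocytosis partners, 8 rose and 10 fell in CKO against WT, among them the retromer subunit gene Vps26b (-1.18) and the dynamin gene Dnm2 (-0.87), and 6 rose and 8 fell in AD CKO against AD WT. Of the 18 further risk locus orthologues, 6 rose and 9 fell in CKO against WT, and 10 rose and 5 fell in AD CKO against AD WT. Clu, the secreted chaperone clusterin, fell in both (-0.54 in the AD model and -0.74 without it), whereas Sort1 rose in AD CKO against AD WT (0.61) and fell in CKO against WT (-0.88). The shares that passed in CKO against WT were 88.9% of the TREM2 partners, 81.8% of the retromer and endocytosis partners and 83.3% of the further orthologues, beside 64% of all genes, and in AD CKO against AD WT 66.7%, 63.6% and 83.3% in the same order, beside 52.1%.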

How the data were processed

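The authors deposited 1 table of expected counts (estimated reads per gene, not scaled) for microglia and 1 for astrocytes. The submitters' processing notes name fastp, HISAT2, StringTie and mm10. Versions, the counting step, its use of strand and the annotation release are not given in the sources used here. Per the labels' protocols, libraries were made with a SMART-Seq low-input kit and sequenced in pairs.

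The members, lists and tests were chosen with earlier results of these data known. Expected counts were rounded and tested with edgeR 4.0.16 in R 4.3.3 (filterByExpr, TMM, robust quasi-likelihood F-test, two-sided, Benjamini-Hochberg adjustment, threshold 0.05). Each cell type was fitted over its 8 libraries, and all 16 were fitted together on the 55405 shared features to compare cell types, which gave 11 comparisons. The interaction is the knockout effect in the AD model minus that without it. The standard error is the absolute log2 fold change over the root of F. Common biological coefficients of variation were 0.0678, 0.0579 and 0.0622. The fit was tested on simulated data. All 34 members may be named, with library values for up to 10 per comparison by smallest p, and up to 4 genes of each partner list by smallest p. A few further members are given with library values chosen after their values were seen.

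Coordinates and exon lengths come from GENCODE M21 and promoters from RefSeq, both on GRCm38. Libraries of a group correlated across genes at 0.9955 to 0.9972, and each pair differed by more than sampling noise (chi-square per degree of freedom 3.58 to 6.28), so none was treated as a duplicate. Same-numbered libraries had deviations that correlated at -0.0324 to 0.149 and were not treated as pairs. Alternatives were RLE size factors, 2 other low-count filters, DESeq2 1.42.0, a replicate block and leaving out each library.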

Additional observations from a re-analysis of the deposited data

Results flagged for a closer look

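The knockout effect differed with and without the AD model, by the interaction test of edgeR at an adjusted p under 0.05, for 10 members in microglia and 26 in astrocytes, 27 distinct members in all. Background shares of genes that passed were 12.7% and 57.8%. In microglia the log2 terms were -0.18 for Trem2, -0.26 for Tyrobp, -0.45 for Lilrb4a, -0.47 for Sorl1, -0.56 for Adamts1 and -1.01 for Fermt2, and 0.25 for Plcg2, 0.34 for Bin1, 0.23 for Tspan14 and 0.50 for Cass4. The terms of Trem2, Plcg2, Tspan14 and Cass4 are those lost without single libraries, with the values given in the report.

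In astrocytes the negative terms were -3.40 for Trem2, -3.81 for Tyrobp, -1.51 for Cd33, -1.45 for Lilrb4a, -1.74 for Blnk, -2.06 for Abi3, -0.67 for Ptk2b, -0.38 for Picalm, -0.74 for Cd2ap and -0.29 for Adamts1, with -4.38 for Scimp and -5.08 for Cass4, whose WT libraries were at or near 0 reads. The positive terms were 0.59 for Inpp5d, 0.72 for Bin1, 1.31 for Sorl1, 1.01 for Usp6nl, 0.66 for Adam17, 0.52 for Tspan14, 0.40 for Ace, 0.69 for Tmem106b, 1.18 for Abca7, 0.94 for Slc24a4, 0.87 for Plekha1, 0.25 for Fermt2, 0.67 for Celf1 and 0.32 for Wwox. In this set 5 terms did not pass when single libraries were left out. Inpp5d was lost without replicate 2 of WT (0.46), replicate 1 of CKO (0.38), replicate 2 of AD WT (0.58) or replicate 2 of AD CKO (0.45). Ptk2b was lost without replicate 1 of CKO (-0.46), replicate 2 of AD WT (-0.53) or replicate 2 of AD CKO (-0.58). Wwox was lost without replicate 1 of CKO (0.31), replicate 1 of AD WT (0.30) or replicate 2 of AD CKO (0.29), and Adamts1 without replicate 1 of AD CKO (-0.22). Cass4 was lost with DESeq2 (-4.36) and without replicate 1 of WT (-5.09) or 2 (-5.07), replicate 2 of CKO (-3.91), replicate 1 of AD WT (-5.20) or 2 (-4.92), or replicate 1 of AD CKO (-4.86) or 2 (-5.27).

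For 15 members, in 21 instances, a contrast passed in one direction in microglia and in the other in astrocytes. The difference between the cell types was not tested, and the report gives the values of those calls that were lost without single libraries. In astrocyte libraries the microglia marker sum was 2.3 times WT in CKO and 1.89 times in AD WT, by group means, and its part was not tested. Scaled together, the WT astrocyte level was 0.309% to 2.175% of that in WT microglia for Trem2, Tyrobp, Blnk, Abi3, Cd33, Inpp5d and Plcg2. For Picalm, Cd2ap, Adamts1, Sorl1, Plekha1, Bin1 and Abca7 it was 11.52% to 154.4%. In CKO against WT the log2 fold changes in microglia and astrocytes were -0.51 and 3.06 for Tyrobp, -0.59 and 1.82 for Blnk, -0.37 and 1.88 for Abi3, -0.15 and 0.39 for Picalm, -0.22 and 0.89 for Cd2ap, -0.83 and 0.62 for Adamts1, and -1.87 and 5.80 for Cass4. In AD WT against WT they were -0.22 and 1.12 for Cd33, -0.24 and 0.35 for Plcg2, -0.16 and 1.05 for Inpp5d, -0.16 and 1.34 for Abi3, 0.40 and -0.54 for Sorl1, 0.39 and -0.36 for Plekha1, and -0.69 and 5.72 for Cass4. The astrocyte values of Cass4, 5.80 and 5.72, are fitted against WT libraries at 0 reads and are no measure of size. In AD CKO against AD WT they were -0.27 and 0.53 for Bin1, -0.61 and 0.35 for Sorl1, -1.40 and 0.32 for Adamts1, and -0.32 and 0.71 for Abca7. In AD CKO against CKO they were 0.28 and -0.79 for Trem2, 0.48 and -0.95 for Tyrobp, and 0.59 and -0.37 for Adamts1. Groups of 2 libraries are too small for a search for single outlying samples.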

How the results depend on the processing

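No member's direction reversed among the values that passed, under RLE size factors, either other filter, DESeq2, the replicate block or any library left out. Of 217 such values over the 11 comparisons, 3 no longer passed with RLE, 3 with no filter, 2 with a filter of 1 CPM (which also removed the 3 Cass4 values in astrocytes, so they were not tested) and 11 with DESeq2, and leaving out single libraries ended 113 calls and kept 1871. The count of members that passed stayed within 1.5 times that reported, except in the microglia interaction, where it ran from 6 to 11 when single libraries were left out. Those ranges were 15 to 18, 13 to 16, 14 to 17 and 6 to 9 in microglia for CKO against WT, AD WT against WT, AD CKO against AD WT and AD CKO against CKO, 23 to 28, 18 to 23, 17 to 19 and 23 to 25 in astrocytes in the same order, 22 to 25 for the astrocyte interaction, and 30 to 31 between cell types. Where an arm kept 1 library, it was assumed to vary like the other groups. The causes were not tested.

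The replicate numbers are not shown to pair samples. With the number as a block, 17, 16, 17, 9 and 13 members passed in microglia (CKO against WT, AD WT against WT, AD CKO against AD WT, AD CKO against CKO, interaction), 28, 23, 20, 27 and 26 in astrocytes in the same order, and 31 between cell types, with no call lost. Depth limits the members at a few reads per library, which are Treml2, Scimp, Cass4 and Epha1 in astrocytes and Slc24a4, Epha1 and Jazf1 in microglia.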

Other observations

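The ratio of Trem2 to Tyrobp CPM was also computed in the astrocyte libraries, where both genes were far lower than in microglia. It was 1.80 and 1.62 in AD CKO, 0.631 and 0.596 in AD WT, 1.48 and 1.58 in CKO, and 0.832 and 0.646 in WT. As in the microglia libraries, every knockout library had a higher ratio than every library with intact Rack1. Microglia markers summed to 478.6 to 1124 CPM in the astrocyte libraries, and their part in this ratio was not tested. The astrocyte libraries are therefore not shown to be a second cell type with this difference. The ratio is not scaled by transcript length. Per kilobase of all annotated exons merged, Tyrobp was 63.2 and Trem2 14.6 CPM per kb in AD CKO astrocyte libraries. Merged exons can be longer than the transcripts made, so these values do not settle which of the genes had more transcripts. The ratio was chosen after its values were seen and was not tested.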
